A study of Mus musculus with 4 samples.

Results

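The genes described are 41 that encode the DNA replication machinery and the enzymes that make its deoxynucleotides, measured by bulk RNA sequencing of mouse colonic epithelial cells taken as primary cells. They were chosen by name, from origin recognition to ligation of the finished strand, and all 41 were found among the 50600 genes of the count table and were among the 14861 with enough counts to test. The 4 libraries came from C57BL/6 mice, 2 wild type (WT) for Mettl14 and 2 labelled Mettl14 knockout (KO). The Mettl14 protein is part of the methyltransferase that places N6-methyladenosine (m6A) on mRNA. The labels do not give the promoter that drives the deletion, the cells it covers, the age of the mice or whether animals were pooled. All 4 titles share a code, C-2W, that the labels do not explain. The labels do not say how many animals were used, but sex chromosome transcripts marked 1 male and 1 female library in each genotype, so the libraries of a genotype were not taken from a single animal. The p-values rest on the spread between 2 libraries a genotype.

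A cell copies its genome once per division. In G1 the origin recognition complex, with Cdc6 and Cdt1, loads rings of the Mcm2 to Mcm7 helicase onto DNA. In S phase Cdc45 and the GINS complex switch the helicase on, polymerase alpha lays primers, polymerases delta and epsilon extend them, and the Pcna ring, loaded by replication factor C, holds the polymerases and the fragment-joining enzymes at the fork. In the colon this happens mainly in the stem and transit-amplifying cells of the lower crypt, and most of these genes are classical targets of E2F transcription factors.

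Totals ran from 22136440 to 24991060 counts a library. Mitochondrial genes held 44.9% and 38.4% of them in the WT libraries and 43.9% and 38.5% in the KO libraries, and stayed in the library sizes used for scaling. Levels are counts scaled to library size (CPM) after trimmed mean of M-values (TMM) scaling, given as mean ± SD (n = 2), and fold changes are KO against WT. A gene was called when the adjusted p of edgeR's quasi-likelihood test over all tested genes was under 0.05. The targeted gene, Mettl14, was at 11.7 and 8.67 CPM in the WT libraries and 3.99 and 3.94 CPM in the KO libraries (log2 fold change -1.36, SE 0.22, edgeR adjusted p = 0.0504). The epithelial label was met: 10 epithelial markers, among them Epcam, Krt8 and Vil1, summed to 9835 and 11886 CPM in WT and 8794 and 7877 CPM in KO. Macrophage markers were also present, at 68.4 and 95.4 CPM in WT and 175 and 161 CPM in KO over 9 genes. Leukocyte markers summed to 204 and 276 against 383 and 285 CPM over 6 genes. Fibroblast markers (7 genes) stood at 55.5 and 80.2 CPM in WT and 76.0 CPM in KO replicate 1, but at 575 CPM in KO replicate 2, and erythroid markers (6 genes) at 1977, 2737, 1353 and 6682 CPM in the order WT replicates 1 and 2, KO replicates 1 and 2. Of the macrophage markers 3 of 9 were called higher (33.3%, against 1.72% of all tested genes). Absorptive colonocyte markers (9 genes) summed to 4172 and 4215 CPM in WT and 2666 and 2964 CPM in KO. Of these, 0 were called higher and 1 lower (11.1%, against 1.9% of all tested genes), the water channel gene Aqp8 (-1.67). Crypt base stem cell markers (9 genes) summed to 124 and 105.2 CPM in WT and 142 and 154 CPM in KO, with Ephb2 called higher (0.93) and Lgr5 at -2.20 (edgeR adjusted p = 0.0506). Goblet cell markers (8 genes) were at 8930 and 12053 against 8827 and 7765 CPM. Neutrophil markers (5 genes) were at 3.57 and 20.3 against 50.1 and 10.9 CPM, and endothelial markers (5 genes) at 5.73 and 9.01 against 14.8 and 13.7 CPM. T cell markers (8 genes) were at 44.6 and 45.0 against 61.5 and 49.8 CPM, and B and plasma cell markers (6 genes) at 9.54 and 31.2 against 29.1 and 17.1 CPM. Every marker of these lists had counts in some library, and their part in the results on replication genes was not tested. A change in a bulk library cannot separate fewer cells of a type from less RNA per cell.

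Of the 41 genes, 2 rose in KO, the thymidine kinase gene Tk1 and the flap endonuclease gene Fen1, and 0 fell by edgeR. That is 4.88% higher, against 1.72% of all tested genes called higher and 1.9% called lower. At an unadjusted p under 0.05 the count was 16 higher and 2 lower, 39.0% and 4.88% of the genes, beside 14.8% and 15.7% of all tested genes. Both KO libraries lay above both WT libraries for 29 of the 41 (70.7%, against 31.1% of all tested genes) and below them for 6 (14.6%, against 32.2%), and the genotypes overlapped for 6. The median log2 fold change was 0.36, beside -0.01 over all tested genes. Library size alone as scaling turned the split of all called genes from 255 higher and 282 lower to 604 and 186. DESeq2 called 6 of the 41 higher (6.41% of all tested genes) and 1 lower, Pcna (6.56%). With sex as a covariate 5 were called higher (4.68% of all) and 1 lower, Pcna (4.8%). Without WT replicate 2 edgeR called 5 higher (8.11% of all) and 1 lower, Pcna (6.5%). Neither Tk1 nor Fen1 was called without KO replicate 1 or without KO replicate 2, when edgeR called 0 of the 41 and 0 of all genes, with 6 and 8 of the 41 higher and 0 lower at an unadjusted p under 0.05.

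**Figure D1:**
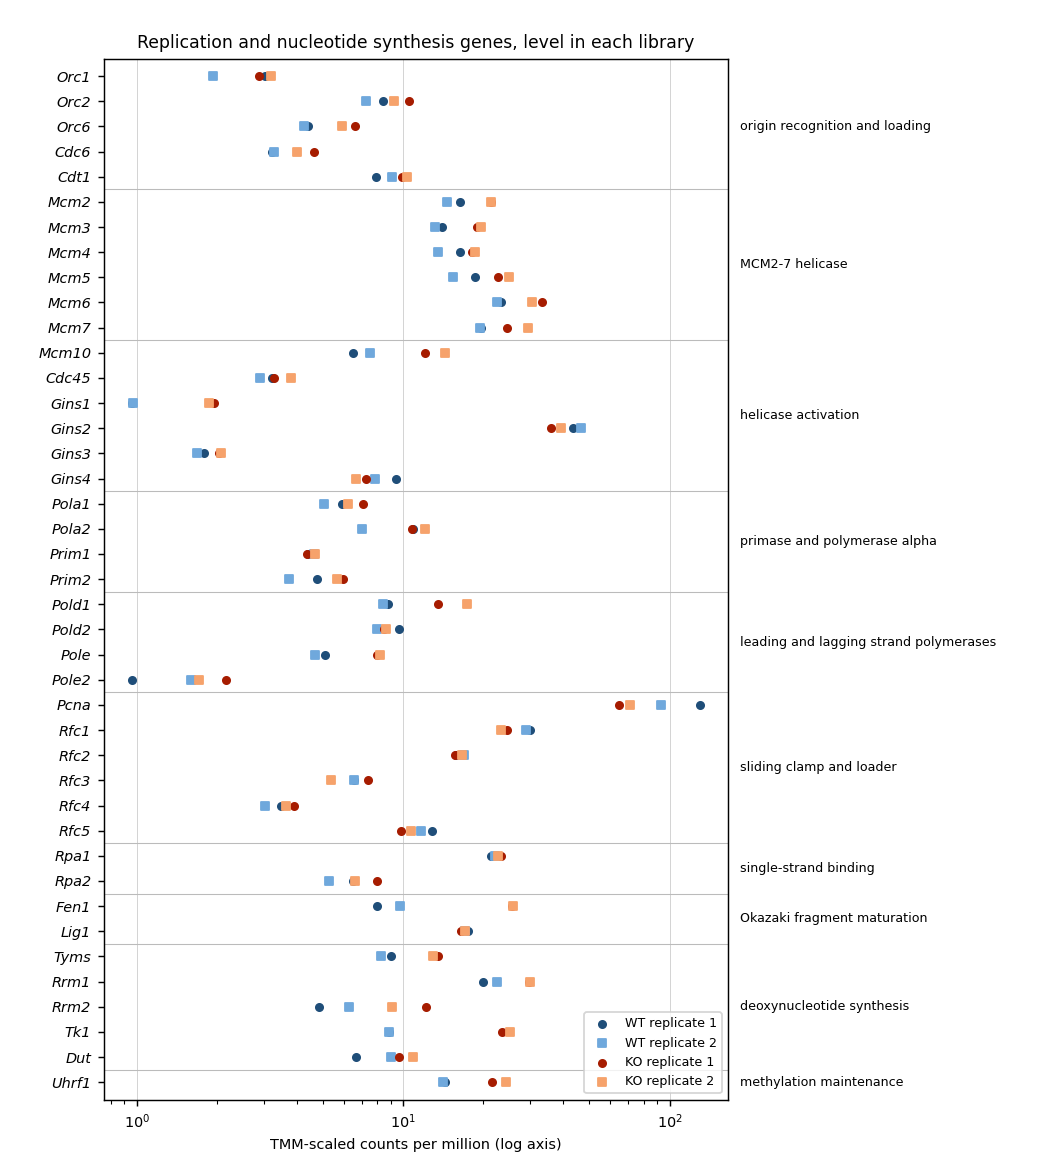
TMM-scaled CPM of the 41 genes in each of the 4 libraries, on a log axis, grouped by role; circles are replicate 1 and squares replicate 2. Pcna stands far to the right at 64.5 to 130 CPM, and its KO points lie left of its WT points, whereas for Tk1, Fen1 and all of Mcm2 to Mcm7 the KO points lie to the right.

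Among the 5 deoxynucleotide enzymes 1 rose, Tk1 (20%, against 1.72% of all tested genes). At an unadjusted p under 0.05, 4 were higher (80%, against 14.8%) and 0 lower. For all 5 the KO libraries both lay above the WT pair, as they did for 31.1% of all tested genes. Tk1, which phosphorylates salvaged thymidine, was at 8.86 and 8.84 CPM in the WT libraries and 23.4 and 25.1 CPM in the KO libraries. The genotypes were far apart compared with their replicates, and Tk1 rose 2.74-fold (log2 fold change 1.45, SE 0.12, edgeR adjusted p = 0.0434). Rrm2, the cell cycle-regulated small subunit of ribonucleotide reductase, was at 4.82 and 6.27 CPM in WT and 12.2 and 9.08 CPM in KO (0.94 on the log2 scale, edgeR adjusted p = 0.0863). Its large subunit Rrm1 was at 19.9 and 22.5 CPM in WT and at 29.6 and 29.9 CPM in KO (0.49, edgeR adjusted p = 0.0751). The KO levels of both reductase genes lay above the WT levels without an edgeR call. Rrm2 was called higher in 3 of 15 alternatives, by DESeq2 (adjusted p = 0.0469) among them, and Rrm1 in 1 of 15, without WT replicate 2 (adjusted p = 0.0387). Over all 15 the adjusted p ran from 0.0427 to 0.4 for Rrm2 and from 0.0387 to 0.406 for Rrm1. Tyms, the thymidylate synthase that makes dTMP from dUMP, was at 9.01 and 8.25 CPM in WT and at 13.5 and 12.9 CPM in KO (0.62, edgeR adjusted p = 0.0723). Dut, which keeps dUTP out of DNA by hydrolysing it to dUMP, was lowest in WT replicate 1 at 6.65 CPM, followed by 9.01 CPM in WT replicate 2 and 9.62 and 10.9 CPM in KO (0.39, 95% interval -0.16 to 0.94).

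Of the Okazaki fragment genes 1 of 2 rose (50%, against 1.72% of all tested genes). Fen1, the endonuclease that trims the flap ahead of each joined fragment, was at 7.95 and 9.72 CPM in WT and 25.5 and 25.8 CPM in KO. It rose 2.91-fold (log2 fold change 1.54, SE 0.15, edgeR adjusted p = 0.0434), the largest change of the 41. Lig1, the ligase that seals the same nick, was at 17.6 and 17.1 CPM in WT and at 16.5 and 17.0 CPM in KO (-0.05, 95% interval -0.35 to 0.25). There were 0.452 and 0.568 Fen1 counts for each Lig1 count in WT and 1.55 and 1.52 in KO. These ratios are taken within a library and do not depend on scaling. Of the 2422 Fen1 exon bases 1909 overlap the antisense gene Gm10143, which had 11, 8, 0 and 14 counts in the 4 libraries, and 130 bases overlap Tmem258, which had 350, 400, 415 and 409. Whether the authors' counting used strand is not given in the sources used here. Tk1 shares 83 of its 5198 exon bases with Afmid, on the other strand, at 138, 269, 236 and 320 counts.

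For each of the 6 helicase genes Mcm2 to Mcm7 both KO libraries lay above both WT libraries, as for 31.1% of all tested genes. The log2 fold changes were 0.30 (Mcm4) to 0.51 (Mcm3). Mcm7 shares 64 and 321 of its 4426 exon bases with Cops6 and Ap4m1 on the other strand. Of the 6, 5 had an unadjusted p under 0.05 (14.8% of all tested genes were higher at that level), but 0 were called by edgeR and 0 by DESeq2. Mcm6 was at 23.3 and 22.5 CPM in WT and at 33.1 and 30.4 CPM in KO (0.47, SE 0.11, edgeR adjusted p = 0.0717). Mcm3 was at 13.97 and 13.2 CPM in WT and 19.0 and 19.6 CPM in KO (0.51, SE 0.12, edgeR adjusted p = 0.0758). The helicase ring holds 1 copy of each subunit, and per kilobase of annotated exon the WT means of 5 of the genes lay between 3.62 (Mcm3) and 4.91 (Mcm6) CPM per kilobase. Mcm2 stood lower at 2.22 ± 0.167 CPM per kilobase, although the annotated exon length, which can include rare exons, enters this level. In KO the order at both ends stayed, with Mcm2 at 3.07 ± 0.00564 and Mcm6 at 6.80 ± 0.406 CPM per kilobase.

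Among the loading factors, 0 of 5 were called by edgeR and 0 by DESeq2. At an unadjusted p under 0.05, 1 was higher (20%, near the 14.8% of all tested genes) and 0 lower. Both KO libraries lay above both WT libraries for 4 of the 5 (80%, against 31.1% of all tested genes). Orc6, the smallest subunit of the origin recognition complex, was at 4.38 and 4.25 CPM in WT and 6.61 and 5.88 CPM in KO (0.53 on the log2 scale, edgeR adjusted p = 0.155). Its exons share 171 bases with the more abundant Vps35. Orc2 was at 0.33, Cdc6, which recruits the helicase, at 0.40, and Cdt1, its partner, at 0.25 on the log2 scale, each higher in both KO libraries. Of the 3857 exon bases of Orc2, 1150 lie opposite exons of Nif3l1, which had 207 and 257 counts in WT and 394 and 416 in KO. Orc2 itself had 175 and 173 counts in WT and 238 and 237 in KO. A part of Nif3l1 reads in the Orc2 change was not tested. Orc1 overlapped between the genotypes, at 3.04 and 1.94 CPM in WT and 2.88 and 3.196 CPM in KO (0.29, 95% interval -0.58 to 1.17).

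Of the helicase activation genes, 4 of 6 lay above and 2 of 6 below WT in both KO libraries. That is 66.7% and 33.3%, beside 31.1% and 32.2% of all tested genes, so the share below was near that of all genes. Of the 6, 0 were called by edgeR (DESeq2 called Mcm10 higher). Mcm10, which helps the activated helicase open DNA, was at 6.50 and 7.49 CPM in WT and 12.1 and 14.4 CPM in KO (log2 fold change 0.92, SE 0.18, edgeR adjusted p = 0.0585). The 4 GINS subunits form 1 complex, yet their transcripts did not share a direction. Gins1 was at 0.964 and 0.968 CPM in WT, on 20 and 23 counts, and at 1.95 and 1.87 CPM in KO, on 44 and 48 counts (0.98, 95% interval 0.08 to 1.88, edgeR adjusted p = 0.144). Gins4 was at 9.39 and 7.87 CPM in WT and 7.23 and 6.66 CPM in KO (-0.31, 95% interval -0.78 to 0.16). Gins3 was at 1.78 and 1.68 CPM in WT and 2.04 and 2.07 CPM in KO (0.24, 95% interval -0.56 to 1.05). Gins2 was at 43.6 and 46.7 CPM in WT and 36.0 and 39.0 CPM in KO (-0.27, 95% interval -0.54 to 0.0024). Per kilobase of exon, Gins2 stood at 11.0 ± 0.53 CPM in WT, above Gins4 at 6.40 ± 0.799 and above Gins1 and Gins3, at 0.637 ± 0.00204 and 0.640 ± 0.0259. However, 2758 of the 4097 exon bases of Gins2 lie opposite exons of Gse1, which had 1368 to 1565 counts, so its level is uncertain. Cdc45, which rides with the helicase, was at 3.23 and 2.90 CPM in WT and 3.28 and 3.78 CPM in KO (0.20, 95% interval -0.45 to 0.86).

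Of the polymerase genes, 0 of 8 were called by edgeR, and Pold1 was called higher by DESeq2. Pold1, the catalytic subunit of polymerase delta, was at 8.77 and 8.37 CPM in WT and 13.6 and 17.4 CPM in KO (log2 fold change 0.85, SE 0.18, edgeR adjusted p = 0.0632). Pole, the catalytic subunit of polymerase epsilon, was at 5.11 and 4.67 CPM in WT and 7.98 and 8.18 CPM in KO (0.73, SE 0.18, edgeR adjusted p = 0.0788). Both catalytic genes were thus higher in each KO library than in each WT library. Of their partner subunits, Pold2 was at -0.04 (95% interval -0.49 to 0.41) and Pole2, on 20 to 49 counts a library, at 0.59 (95% interval -0.50 to 1.68). A difference between subunits was not tested. Of the primase and polymerase alpha genes, Prim1, the catalytic primase subunit, had the same mean in WT and KO at 4.51 CPM (0.0014, 95% interval -0.54 to 0.54). Prim2 (0.45), Pola1 (0.29) and Pola2 (0.36) had positive values, all with intervals that included 0.

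Pcna went the other way from most. It was the most abundant of the 41 transcripts, at 130 and 93.3 CPM in the WT libraries and 64.5 and 70.9 CPM in the KO libraries (log2 fold change -0.72, SE 0.19, edgeR adjusted p = 0.0886). The genotypes did not overlap, and the WT libraries differed from each other by more than the KO libraries did. Pcna was not called, and gained a call in 4 of 15 alternatives (adjusted p 0.0201 to 0.386 over all of them), namely DESeq2, no filter, sex as a covariate and omission of WT replicate 2. Its log2 fold change was -0.91 without WT replicate 2 and -0.47 without WT replicate 1. Its exons overlap those of no other gene with counts. Pcna made up 22.9% and 17.97% of the counts of the 41 genes in WT and 10.7% and 11.4% in KO.

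Of the 5 genes of the clamp loader, which opens the Pcna ring and places it on primed DNA, 2 lay below WT in both KO libraries (Rfc1 and Rfc5), Rfc4 lay above, and Rfc2 and Rfc3 overlapped. Of all tested genes, 32.2% lay below and 31.1% above in this way. Rfc1, the large subunit, was at 29.97 and 28.9 CPM in WT and 24.5 and 23.3 CPM in KO (log2 fold change -0.30, SE 0.10, edgeR adjusted p = 0.138). Rfc5 was at 12.9 and 11.7 CPM in WT and 9.80 and 10.7 CPM in KO (-0.26, 95% interval -0.64 to 0.13). Rfc2 (-0.02, 95% interval -0.34 to 0.31), Rfc3 (-0.03, 95% interval -0.63 to 0.56) and Rfc4 (0.21, 95% interval -0.42 to 0.84) did not separate from 0. Exons of Rfc2, Rfc4 and Rfc5 share 952, 194 and 499 bases with Lat2, Eif4a2 and Wsb2 on the other strand. Eif4a2 had 3740 to 5318 counts a library, against 72 to 93 for Rfc4. In all, 0 of the 6 clamp and loader genes were called by edgeR. At an unadjusted p under 0.05, 0 were higher (against 14.8% of all tested genes) and 2 lower (33.3%, against 15.7%), Pcna and Rfc1. The single-strand binding genes Rpa1 and Rpa2 had log2 fold changes of 0.08 (95% interval -0.20 to 0.36) and 0.31 (95% interval -0.25 to 0.87). Uhrf1, which reads hemimethylated DNA behind the fork and brings in the maintenance methyltransferase, was at 14.3 and 14.1 CPM in WT and 21.5 and 24.3 CPM in KO (0.69, SE 0.13, edgeR adjusted p = 0.0553). Uhrf1 too gained a call in 4 of 15 alternatives.

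**Figure D2:**
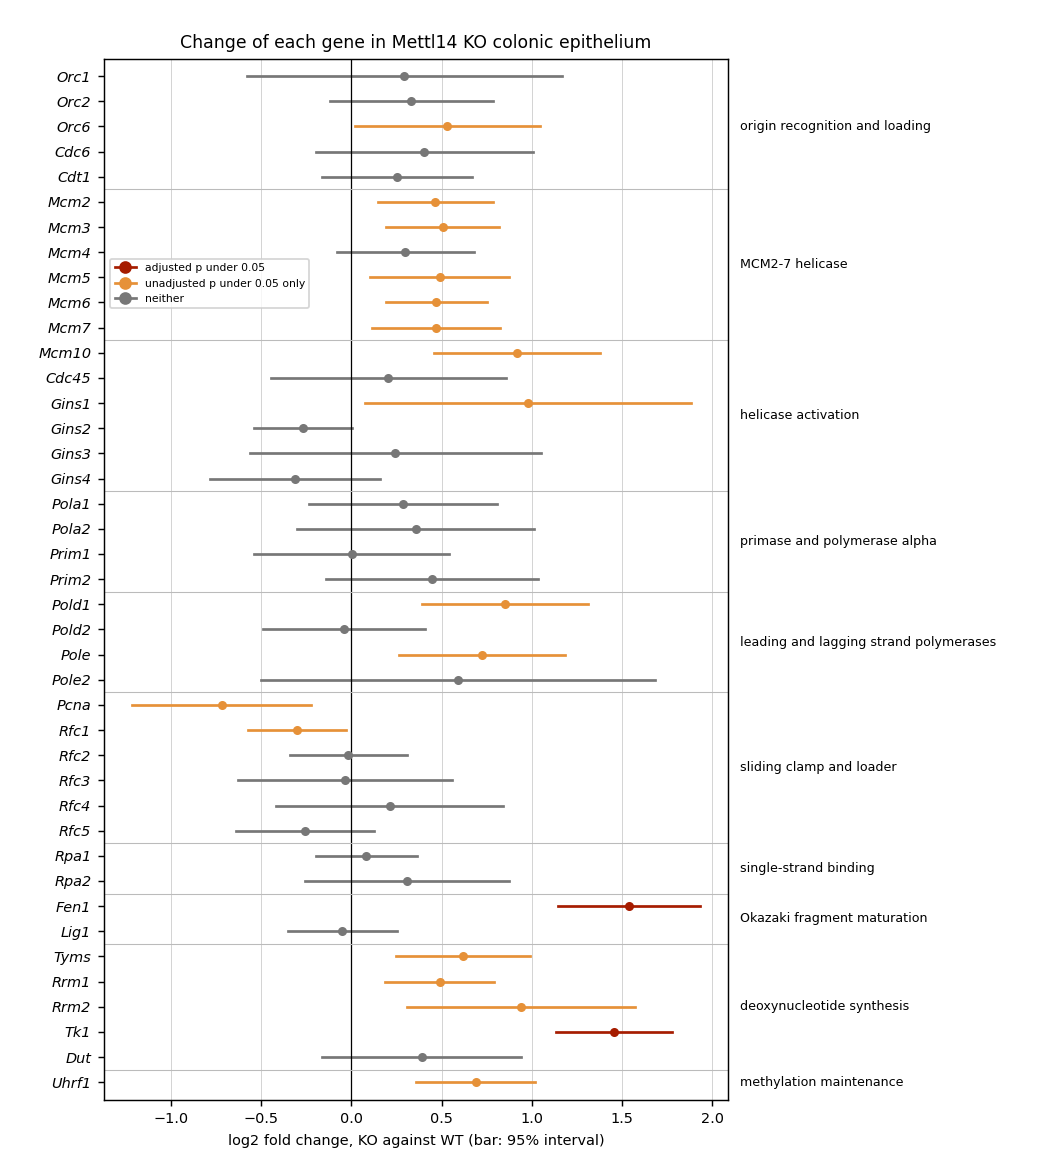
Log2 fold change of each of the 41 genes in KO against WT with its 95% interval from the edgeR fit, grouped by role. Tk1 and Fen1, in dark red, passed the threshold, 16 genes in orange (14 higher and 2 lower) had only an unadjusted p under 0.05, and Pcna and Rfc1 are the 2 of these left of 0.

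Ratios within a library set these genes against each other without any scaling factor. That Pcna was lower and mitotic genes higher in KO was known when the genes were chosen, so the ratios are given as a description, without a test. Pcna counts were 1.201 and 0.944 times the summed counts of Mcm2 to Mcm7 in WT and 0.465 and 0.491 times in KO. The KO ratio was lower in both libraries than in either WT library (log2 difference -1.16). Tk1 had 0.0820 and 0.0895 counts for each count of Mcm2 to Mcm7 in WT and 0.169 and 0.174 in KO, higher in both KO libraries. The 41 genes together had 2.41 and 1.82 counts for each count of 30 mitotic genes in WT and 1.12 and 1.24 in KO (log2 difference -0.83). Without Pcna this difference was -0.67.

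**Figure D3:**
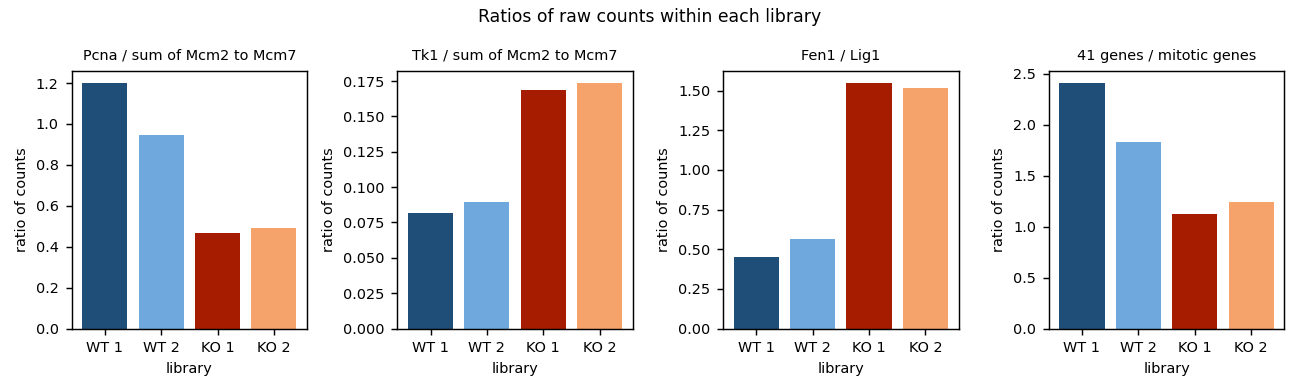
Ratios of raw counts within each of the 4 libraries, for Pcna and Tk1 over the summed Mcm2 to Mcm7 genes, Fen1 over Lig1, and the 41 genes over 30 mitotic genes; each bar is 1 library. Pcna over the helicase genes is 0.944 to 1.201 in WT and 0.465 to 0.491 in KO, and Fen1 over Lig1 is 0.452 to 0.568 in WT and 1.52 to 1.55 in KO.

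The 30 mitotic genes had a larger median fold change than the replication genes, a difference described here without a test. For all 30 the KO libraries both lay above the WT pair (31.1% of all tested genes), 7 were called higher (23.3%, against 1.72%), and the median log2 fold change was 0.89. Mki67, the proliferation antigen, rose from 57.2 ± 12.3 to 155 ± 5.11 CPM (1.43), and Cenpf, a kinetochore protein gene, from 8.36 ± 0.441 to 23.1 ± 3.78 CPM (1.46). Aspm, of the spindle poles, and Tpx2, a spindle assembly factor, rose by 1.59 and 1.22. Top2a, the topoisomerase that untangles chromosomes, was at 0.58 without a call (edgeR adjusted p = 0.0549). Within a genotype the lists did not run in parallel. WT replicate 2 exceeded WT replicate 1 for 26 of 30 mitotic genes, 13 of the 41 replication and nucleotide genes and 7247 of the 14861 tested genes. KO replicate 2 exceeded KO replicate 1 for 6 of 30, 24 of 41 and 7512 of 14861. WT replicate 2 and KO replicate 1 were the libraries inferred as female. Most mitotic genes were thus higher in the female library of each genotype, and a part of sex in this was not tested.

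The rest of the pathway is given beside the shares of all tested genes. Of 32 other fork and origin genes, 1 was called higher (3.13%, against 1.72%) and 0 lower (against 1.9%). At an unadjusted p under 0.05, 6 were higher (18.8%, against 14.8%) and 1 lower (3.13%, against 15.7%), and the median was 0.09. The called gene was Dbf4, the activating subunit of the kinase that fires loaded origins, which rose from 5.78 and 7.66 CPM to 20.4 and 19.4 CPM (1.56, SE 0.18, edgeR adjusted p = 0.0434). The most abundant genes of that list, Top1 (-0.20) and Chtf8 (0.15), were not called. Of 33 other nucleotide synthesis genes 0 were called by edgeR. DESeq2 called 2 of the 33 higher and 0 lower, near the 6.41% of all tested genes that it called higher. At an unadjusted p under 0.05, 8 were higher (24.2%) and 2 lower (6.06%), and the median was 0.19. Cmpk1, the abundant UMP-CMP kinase, was at 279 ± 52.0 CPM in WT and 202 ± 10.4 CPM in KO (-0.46, edgeR adjusted p = 0.161), and Pnp, a purine salvage enzyme, at 0.21. Of 10 genes of chromatin assembly and methylation at the fork 0 were called by edgeR and 0 by DESeq2, with 3 higher (30%) at an unadjusted p under 0.05 and a median of 0.26, Ssrp1 at 0.12 and Rbbp4 at 0.06.

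Genes that gate entry into S phase had fold changes of both signs. Of 19 E2F, RB and DREAM genes, edgeR called 0 higher and 1 lower (5.26%, against 1.9% of all tested genes). DESeq2 called 1 each way (5.26%, near its 6.41% higher and 6.56% lower of all tested genes). At unadjusted p under 0.05, 3 were higher (15.8%, near the 14.8% of all tested genes) and 5 lower (26.3%, against 15.7%). The gene that DESeq2 added, Foxm1, a transcription factor of mitotic genes named here after its values were seen, was at 4.10 and 6.02 CPM in WT and 13.0 and 15.7 CPM in KO (1.499 on the log2 scale, edgeR adjusted p = 0.0506), and was also called with sex as a covariate (adjusted p = 0.036). Rb1, the retinoblastoma protein that holds E2F in check, fell from 40.7 and 38.5 CPM to 22.6 in both KO libraries (log2 fold change -0.81, SE 0.10, edgeR adjusted p = 0.0434), and lost its call with library size scaling (adjusted p = 0.0584). Tfdp1, the E2F dimer partner, was at 0.22. Of 19 genes of G1/S control, 3 rose (15.8%, against 1.72% of all tested genes), the cyclin genes Ccnd1 (1.01), Ccna2 (0.97) and Ccnd2 (0.85). At unadjusted p under 0.05, 7 were higher (36.8%, against 14.8% of all tested genes) and 2 lower (10.5%, against 15.7%). DESeq2 called 6 higher and 1 lower, beside 6.41% and 6.56% of all tested genes. Ccnd2 lost its call with relative log expression factors (adjusted p = 0.0536) and without the robust option (adjusted p = 0.0507). Cdkn1a, the CDK inhibitor p21, which binds Pcna, was at 287 and 399 CPM in WT and 175 and 187 CPM in KO (-0.92, edgeR adjusted p = 0.0668). Ddb1, of the ligase that destroys Cdt1 in S phase, was at -0.25. Of 13 checkpoint genes, edgeR called 0 higher and 1 lower (7.69%, against 1.9% of all tested genes). At unadjusted p under 0.05, 3 were higher (23.1%, against 14.8%) and 1 lower (7.69%, against 15.7%). The called gene, Wee1, the kinase that restrains CDK1 and CDK2, fell from 18.7 ± 1.93 to 8.31 ± 1.03 CPM (-1.17). It lost its call with library size scaling (adjusted p = 0.0531). Atr, the replication stress kinase, was at 0.45. DESeq2 called 1 higher and 1 lower, beside 6.41% and 6.56% of all tested genes. The higher one was Brca2, of recombination repair, likewise named after its values were seen (1.23 on the log2 scale, edgeR adjusted p = 0.0603). Brca2 was also called with sex as a covariate (adjusted p = 0.0342). Of 18 p53 targets, 1 rose (5.56%, against 1.72% of all tested genes), Aen (1.07). The 2 that fell (11.1%, against 1.9%) were Trp53inp1 (-1.04) and Btg2 (-1.20). The list had a median of 0.09 but ran from -1.20 to 2.83. At unadjusted p under 0.05, 6 were higher (33.3%, against 14.8% of all tested genes) and 5 lower (27.8%, against 15.7%). DESeq2 called 3 each way, beside 6.41% higher and 6.56% lower of all tested genes. Like those of Tk1 and Fen1, the calls named here on mitotic, cyclin, Dbf4, Rb1, Wee1 and p53 target genes ended without KO replicate 1 and without KO replicate 2, where edgeR called no gene.

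**Figure D4:**
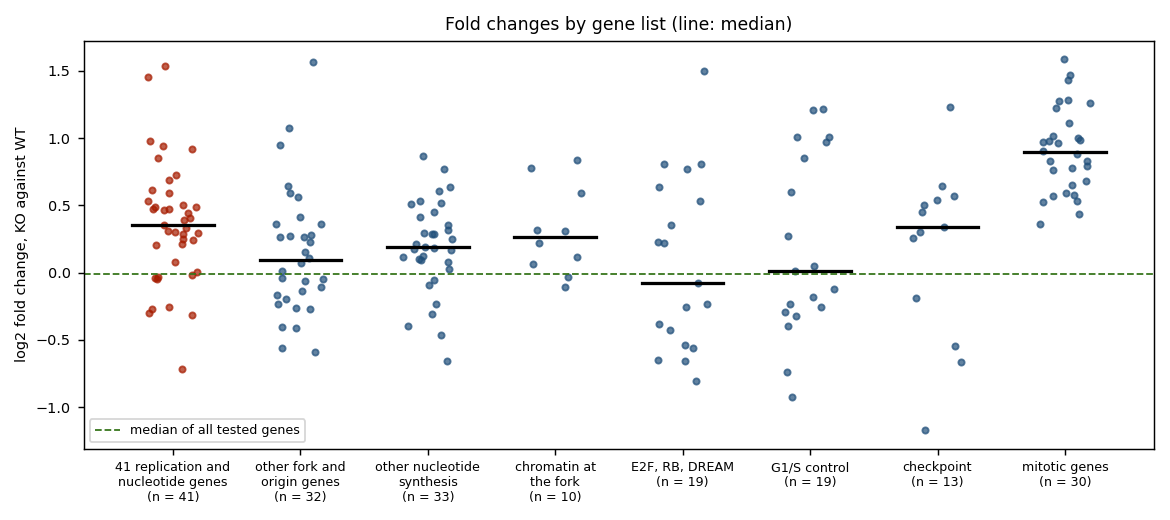
Log2 fold changes in KO against WT for the 41 replication and nucleotide genes (red) and 7 other lists (blue); each point is a gene, black lines are list medians and the dashed line is the median of all tested genes. The median is 0.36 for the 41 genes, 0.09 for the other fork and origin genes and 0.89 for the mitotic genes.

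Promoter sequences are given for helicase genes, whose fold changes lay close together, and for Pcna, Tk1 and Fen1, whose fold changes lay farthest from theirs. RefSeq windows (build GRCm38.p6) from 250 bases before to 50 bases after the gene start were found for 34 of the 41 genes, all but Mcm4, Gins1, Gins2, Gins4, Prim2, Pole and Rfc2. The E2F letters searched were TTTCCCGC, TTTGGCGC, TTTCGCGC and TTTGCCGC on both strands, whose matches can overlap. Of the 34 genes, 14 (41.2%) held at least 1 of them, against 4.39% of the 10885 tested genes with a window and 1 of 27 mitotic genes (3.7%). The CHR letters TTTGAA, both strands, named after the cell cycle genes homology region found in promoters of late cell cycle genes, were in 5 of the 34 (14.7%), 14.9% of tested genes and 21 of 27 mitotic genes (77.8%). The 250 bases before the start follow, for 3 helicase genes with E2F letters and for Pcna, Tk1 and Fen1, 5′ to 3′ along the gene, with matches to either motif in capitals. They lie at chr8:75109259-75109508 (Mcm5, plus strand), chr1:128359706-128359955 (Mcm6, minus), chr5:138171884-138172133 (Mcm7, minus), chr2:132253181-132253430 (Pcna, minus), chr11:117826015-117826264 (Tk1, minus) and chr19:10203922-10204171 (Fen1, minus). Fen1 and Mcm7 have a further window each, not shown.

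Mcm5: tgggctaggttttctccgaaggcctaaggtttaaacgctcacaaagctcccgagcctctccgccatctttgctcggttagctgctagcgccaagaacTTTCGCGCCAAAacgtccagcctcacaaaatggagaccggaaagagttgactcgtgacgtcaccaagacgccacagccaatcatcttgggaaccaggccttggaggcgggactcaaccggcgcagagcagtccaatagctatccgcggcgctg
Mcm6: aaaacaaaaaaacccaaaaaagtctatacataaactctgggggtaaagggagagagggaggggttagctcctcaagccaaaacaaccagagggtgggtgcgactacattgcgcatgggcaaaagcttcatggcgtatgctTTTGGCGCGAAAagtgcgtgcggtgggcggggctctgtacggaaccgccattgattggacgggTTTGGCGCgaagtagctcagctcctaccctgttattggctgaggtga
Mcm7: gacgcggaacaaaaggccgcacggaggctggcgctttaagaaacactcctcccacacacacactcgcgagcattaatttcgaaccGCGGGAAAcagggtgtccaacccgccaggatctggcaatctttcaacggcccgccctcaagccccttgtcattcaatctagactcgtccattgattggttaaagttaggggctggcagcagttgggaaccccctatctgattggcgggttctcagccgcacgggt
Pcna: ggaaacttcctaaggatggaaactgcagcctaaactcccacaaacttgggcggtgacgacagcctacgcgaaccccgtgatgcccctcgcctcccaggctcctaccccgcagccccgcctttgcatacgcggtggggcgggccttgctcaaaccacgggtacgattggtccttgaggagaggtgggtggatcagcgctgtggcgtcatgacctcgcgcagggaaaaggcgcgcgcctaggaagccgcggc
Tk1: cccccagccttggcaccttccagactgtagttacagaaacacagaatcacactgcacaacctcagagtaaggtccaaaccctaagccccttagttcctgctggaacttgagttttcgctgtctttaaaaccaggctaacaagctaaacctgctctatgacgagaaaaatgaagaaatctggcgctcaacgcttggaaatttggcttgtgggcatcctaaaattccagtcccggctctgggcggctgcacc
Fen1: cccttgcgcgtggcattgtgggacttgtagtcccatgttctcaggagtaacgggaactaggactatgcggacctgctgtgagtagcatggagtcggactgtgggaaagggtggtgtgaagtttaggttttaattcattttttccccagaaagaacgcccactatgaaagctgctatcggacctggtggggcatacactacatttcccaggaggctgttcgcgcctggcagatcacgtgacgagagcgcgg

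Mcm6 carried 3 matches, TTTGGCGC beginning 110 and 47 bases before the start and GCGCGAAA, its reverse-strand form of TTTCGCGC, beginning 106 bases before and overlapping the first. Mcm5 held an overlapping pair, 153 and 149 bases before the start, and Mcm7 held GCGGGAAA 165 bases before and a second match within the transcribed part of the window. The 3 were shown because they hold E2F letters before the start. Mcm3 held its E2F letters only after the start. Mcm2 had a window without E2F letters, and its log2 fold change of 0.47 was like that of Mcm6 and Mcm7 (0.47 each). The shown stretches of Pcna, Tk1 and Fen1 held neither motif. Starts follow RefSeq, and GENCODE places Fen1 at chr19:10199132-10204169 and Mcm7 at chr5:138164583-138172422. By GENCODE the shown stretch of Mcm7 thus lies wholly, and that of Fen1 almost wholly, inside the gene. GENCODE starts the minus-strand genes Pcna at chr2:132253314 and Tk1 at chr11:117826092, so a part of each of their shown stretches also lies inside the gene. The other Fen1 window spans chr19:10204344-10204643, and the bases between the Fen1 windows were not searched. A lack of E2F letters in the whole Fen1 promoter is therefore not shown. The other Fen1 window held TTCAAA, the reverse-strand CHR letters, 124 bases before its start. The 14 genes with E2F letters, which also include Orc1, Cdc6, Cdt1, Mcm3, Gins3, Pola1, Pold1, Pole2, Rfc3, Lig1 and Uhrf1, had a median log2 fold change of 0.44 (range -0.05 to 0.85). The 20 genes with a window but without the letters had a median of 0.34 over a wider range (-0.72 to 1.54), with Pcna and Fen1 at its ends. A match is a run of letters and not a measured binding site.

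**Figure D5:**
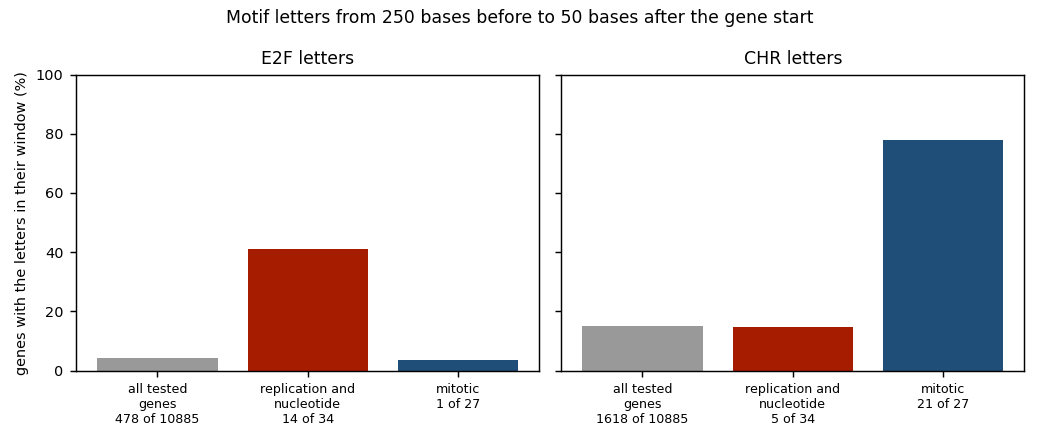
Percent of genes whose promoter window holds the E2F letters (left) or the CHR letters (right), for all tested genes with a window (grey), the replication and nucleotide genes (red) and the mitotic genes (blue). E2F letters are in 41.2% of the replication and nucleotide genes and 3.7% of the mitotic genes, and CHR letters in 14.7% and 77.8%.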

How the data were processed

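RNA from 2 WT and 2 Mettl14 KO libraries was sequenced after oligo-dT selection, per the labels' protocols. Build mm10 and the tools RSEM 1.2.29, STAR 2.4.2a and FastQC 0.11.2 are listed, per the submitters' processing notes, with no role for each. The authors deposited a table of counts by gene, whole numbers whose totals differ between libraries and so were taken as unnormalised. Annotation release, strand setting and any rounding of counts: not given in the sources used here. The table had 0 columns without a sample.

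Genes were kept with filterByExpr (14861 of 50600) and tested with edgeR 4.0.16 (R 4.3.3) by the quasi-likelihood F-test with legacy and robust options, TMM factors, 2 residual degrees of freedom and Benjamini-Hochberg adjustment over all tested genes, two-sided, at 0.05. Intervals are 95% from that fit. A count of 0 would allow up to 3 counts, or 0.117 to 0.145 CPM, for counting error only. Exon lengths and overlaps came from GENCODE M21 (GRCm38), where 99.56% of the table's identifiers were found; promoters came from RefSeq (GRCm38.p6). Replicates were numbered in accession order. Sex, 1 male and 1 female library in each genotype, was inferred from sex chromosome transcripts and used only as a covariate in 1 alternative. DESeq2 1.42.0 and limma-voom (limma 3.58.1) were alternatives, beside other scaling, filters, edgeR options and omission of each library.

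The members, lists and motif letters were chosen with earlier results of these data known. The genes named by rule are all 41 members, Mettl14, and, of each other list, up to 4 called genes and the 2 most abundant. Outside this rule, Foxm1 and Brca2 were added after their values were seen. Single cell type markers and genes with overlapping exons are also named. Lists are described by counts and medians, without a set test.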

Additional observations from a re-analysis of the deposited data

How the results depend on the processing

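The alternatives numbered 15, and 1 more, leaving out the 13 genes whose exons overlap another gene with counts, was chosen after seeing the data. Over all genes 537 were called, against 1927 with DESeq2, 1632 without a filter, 1409 with sex as a covariate, and 0 to 2290 without each library in turn. Of the 41 genes, 2 were called higher, against 6 with DESeq2, 6 without a filter, 5 with sex as a covariate (Tk1, Fen1, Rrm2, Pold1 and Uhrf1), and 0 to 5 without each library in turn. In these 3 fits 1 was called lower, Pcna, and 0 to 1 without each library in turn. Of the 28 genes without exon overlap, edgeR called 0 higher and 0 lower. By unadjusted p under 0.05, 11 were higher (39.3%, against 14.8% of all tested genes) and 2 lower (7.14%, against 15.7%). DESeq2 called 4 higher and 1 lower, beside 6.41% and 6.56% of all tested genes. The median log2 fold change of 0.36 became 0.53 with library size only, 0.42 with upper quartile factors, and 0.31 to 0.43 without each library in turn. Library size scaling moved the median of all genes from -0.01 to 0.15, and the 41 genes stood 0.37 above it with TMM and 0.38 above it with library size. The log2 ratio of Pcna to Mcm2 to Mcm7 ran from -1.33 to -0.98 and that of the 41 genes to mitotic genes from -1.03 to -0.63 without each library in turn.

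Genes near 0 changed sign, all without a call. With library size only, Pold2 was at 0.13, Rfc2 at 0.15, Rfc3 at 0.12 and Lig1 at 0.12, and with upper quartile factors Pold2 at 0.028, Rfc2 at 0.054, Rfc3 at 0.036 and Lig1 at 0.021. Rfc2 was also at 0.0066 without a filter and 0.012 without mitochondrial genes. Without each library in turn, Prim1 ran from -0.047 to 0.074, Pold2 from -0.14 to 0.089, Rfc2 from -0.079 to 0.070 and Rfc3 from -0.29 to 0.20. Omitting a library leaves 1 in its genotype, which is assumed to vary like the other group. No paired analysis was possible because the labels give the libraries no shared replicate numbers. The fit with sex as a covariate, whose counts stand above, does set 1 WT beside 1 KO library within each inferred sex.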
